A study of Rattus norvegicus with 5 samples.

Results

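Lipid and cholesterol metabolism was described through 44 genes, chosen by symbol and all found among the 30017 gene symbols of the libraries. They fell into 7 lists by role: 12 genes of cholesterol synthesis (Hmgcs1, Mvd, Mvk, Idi1, Fdps, Fdft1, Sqle, Lss, Cyp51, Dhcr7, Sc5d and Nsdhl), 5 sterol and lipid regulators (Insig1, Srebf1, Srebf2, Pparg and Ppara), 8 genes of fatty acid synthesis (Fasn, Acaca, Acly, Scd, Elovl5, Elovl6, Fads1 and Fads2), 7 of barrier lipids (Elovl1, Elovl4, Elovl7, Cers3, Sptlc2, Ugcg and Abca12), 3 of sebum lipids (Elovl3, Awat2 and Far2), 7 of uptake, storage and oxidation (Fabp4, Fabp5, Cpt1a, Lpl, Dgat1, Dgat2 and Plin2) and the 2 lipoprotein genes Apoe and Apoc1. Their RNA was followed in single cells of rat skin after irradiation, by cell type and library, with cholesterol synthesis set against fatty acid synthesis and barrier lipids.

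The skin came from male SD rats, bought at 4 weeks of age per the study's methods. Buttock skin was shaved and received a single dose of an electron beam with the rest of the body shielded by lead, and was taken after 7, 14, 28 or 60 days (d). Control skin was a piece that had received no radiation. Each of the 5 groups was 1 droplet library (10x Genomics, 3' chemistry), and the number of animals behind a library was not stated. The 60 d library is known here from its labels only. A difference between an irradiated library and the control library therefore has no replicate check, and an effect of irradiation and a difference between libraries cannot be told apart.

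Cells in skin make cholesterol from acetyl-CoA through mevalonate and squalene, and fatty acids from acetyl-CoA through malonyl-CoA. Both pathways are driven by the SREBP transcription factors (Srebf1, Srebf2), which INSIG1 holds back in the endoplasmic reticulum when sterol is plentiful. In the upper epidermis, suprabasal keratinocytes elongate fatty acids to very long chains, build them into ceramides and glucosylceramides, load these with cholesterol into lamellar granules and secrete them as the water barrier. Sebocytes, the cells of the sebaceous gland, make wax esters and triglycerides.

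The promoters of the cholesterol synthesis genes Hmgcs1, Fdps, Idi1 and Mvd are shown because the levels of these genes, which share a pathway, lay on opposite sides of control at 14 d. Each is the RefSeq sequence from 250 bases before to 50 bases after the transcription start, on the gene's own strand in build GRCr8, which is not the build of the count files (Rnor_6.0). The positions are chr2:53382054-53382353 on the plus strand for Hmgcs1, and on the minus strand chr2:176804767-176805066 for Fdps, chr17:66547475-66547774 for Idi1 and chr19:67414925-67415224 for Mvd. Capitals mark the letters CCAAT, or ATTGG on the other strand.
Hmgcs1: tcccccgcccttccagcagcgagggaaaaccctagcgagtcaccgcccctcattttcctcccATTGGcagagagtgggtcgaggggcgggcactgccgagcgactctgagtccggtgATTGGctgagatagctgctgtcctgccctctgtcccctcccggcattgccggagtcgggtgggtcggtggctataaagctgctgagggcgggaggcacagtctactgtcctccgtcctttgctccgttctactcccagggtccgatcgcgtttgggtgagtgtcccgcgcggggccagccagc
Fdps: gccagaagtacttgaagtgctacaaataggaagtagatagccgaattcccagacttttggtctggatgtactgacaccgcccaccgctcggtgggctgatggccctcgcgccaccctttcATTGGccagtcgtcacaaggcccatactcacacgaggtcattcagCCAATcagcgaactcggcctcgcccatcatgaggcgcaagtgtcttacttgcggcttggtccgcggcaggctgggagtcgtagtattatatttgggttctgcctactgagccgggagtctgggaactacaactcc
Idi1: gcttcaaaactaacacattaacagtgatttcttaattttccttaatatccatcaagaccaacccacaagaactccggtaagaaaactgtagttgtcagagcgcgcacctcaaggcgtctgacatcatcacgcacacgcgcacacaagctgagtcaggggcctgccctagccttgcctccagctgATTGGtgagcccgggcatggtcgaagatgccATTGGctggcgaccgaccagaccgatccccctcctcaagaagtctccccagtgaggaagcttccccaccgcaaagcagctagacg
Mvd: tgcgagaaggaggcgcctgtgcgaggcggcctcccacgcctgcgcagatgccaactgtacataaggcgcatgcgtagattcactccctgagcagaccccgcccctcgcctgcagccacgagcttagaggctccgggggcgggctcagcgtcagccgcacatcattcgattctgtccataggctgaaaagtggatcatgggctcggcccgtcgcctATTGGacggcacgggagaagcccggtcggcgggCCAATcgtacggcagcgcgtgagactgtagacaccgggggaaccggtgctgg
CCAAT is the letter core of the box bound by the factor NF-Y. The first base of a match lay 133 and 188 bases before the start in Hmgcs1, 85 and 130 in Fdps, 35 and 66 in Idi1 and 2 and 35 in Mvd.

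RefSeq held a promoter for 33 of the 44 genes. The letters CCAAT stood on either strand in the promoters of 21 of these 33, and in 8 of the 10 cholesterol synthesis genes with a promoter (all but Cyp51 and Dhcr7), against 2 of 6 barrier lipid genes. Of all 33469 promoters of the same length, 37.5% held them. The classical sterol response element was searched as TCACNCCAC on both strands. It was in none of the 33 genes, against 1.12% of all promoters, and its last 8 letters, CACNCCAC, were in Insig1, Elovl5 and Fads1 only, against 5.8% of all promoters. These matches describe letters in a window and are not binding sites.

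Of 49507 barcodes, 43408 passed the filters (10153 in control, then 11304, 4370, 9033 and 8548 at 7, 14, 28 and 60 d). The libraries held between 70073362 and 139566348 molecules counted by unique molecular identifier (UMI), with a median of 4082 to 11650.5 UMIs per barcode. Cells were gated from marker genes into classes, and 10.0% stayed unassigned (3.47% to 19.1% by library). Class names mean that a cell was like the named type by its markers, none of which was among the 44 genes. Keratinocytes (Krt5, Krt14, Krt1 and others) were split on a basal and a suprabasal marker score, each cut at 0.4. Basal and suprabasal cells reached the cut in their own score only. Intermediate cells reached it in both scores or in neither, so they are not a middle step between the other classes. Of all keratinocytes 16.2% to 28.8% lay near a cut, so the classes are ranges of continuous scores. The suprabasal range held 696, 184, 1199, 1470 and 814 cells in control and at 7, 14, 28 and 60 d, the basal range 3086, 1297, 532, 2193 and 4765. Fibroblasts numbered 3352, 7089, 77, 554 and 597, so that the 14 d fibroblast values rest on 77 cells. Pairs of libraries shared 11 to 41 barcodes.

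Levels are given as CPM, the UMIs of a gene per 1000000 UMIs, after all cells that share a class and a library were added up. Intervals are exact 95% intervals and cover counting error only. In every sequence of values below, the order is control, 7 d, 14 d, 28 d and 60 d.

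On average over the libraries, cholesterol synthesis RNA was densest in suprabasal keratinocytes (1762 CPM), followed by Schwann cells (1524 CPM) and intermediate keratinocytes (1347 CPM). The 12 genes summed to 1804, 1459, 1559, 2267 and 1722 CPM in suprabasal keratinocytes and to 1036, 920, 835, 1505 and 959 CPM in basal keratinocytes. In Schwann cells, the glia of skin nerves, they summed to 1329, 1279, 2158, 1308 and 1546 CPM, and in fibroblasts to 427, 339, 476, 379 and 360 CPM. The order of Schwann cells and keratinocytes was not the same in every library, since Schwann cells were above suprabasal keratinocytes at 14 d and below intermediate keratinocytes in control (1392 CPM) and at 28 d (1737 CPM). The values of suprabasal keratinocytes and of fibroblasts did not overlap in any pair of libraries.

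The fatty acid synthesis genes followed another order. Schwann cells held the most, with 163, 228, 272, 262 and 188 CPM. Suprabasal keratinocytes (116, 128, 126, 131 and 93.3 CPM) and fibroblasts (108, 113, 112, 135 and 127 CPM) overlapped, and basal keratinocytes were below both in every library (59.2, 68.0, 69.1, 71.2 and 46.6 CPM). In Schwann cells the gene of the list with the highest mean over libraries was Fasn, the fatty acid synthase, with 38.2, 77.4, 90.7, 115 and 74.7 CPM, all on 19 to 57 UMIs. Acly, which makes cytosolic acetyl-CoA from citrate, had 60.3, 66.5, 104, 58.9 and 47.1 CPM there, and the desaturase Fads1 48.3, 44.8, 33.0, 50.1 and 38.8 CPM.

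The barrier lipid genes summed to 548, 546, 375, 395 and 272 CPM in suprabasal keratinocytes and to 130, 109, 155, 130 and 71.5 CPM in basal keratinocytes. Fibroblasts held 322, 213, 226, 263 and 165 CPM, of which Ugcg, the glucosylceramide synthase that most cells use, made 241, 134, 132, 183 and 87.1 CPM. The uptake, storage and oxidation list was led by Fabp5 in keratinocytes, and the lipoprotein list by Apoe in every class named here. Phagocytes held 11544, 4265, 3447, 3435 and 7871 CPM of the lipoprotein genes.

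**Figure D1:**
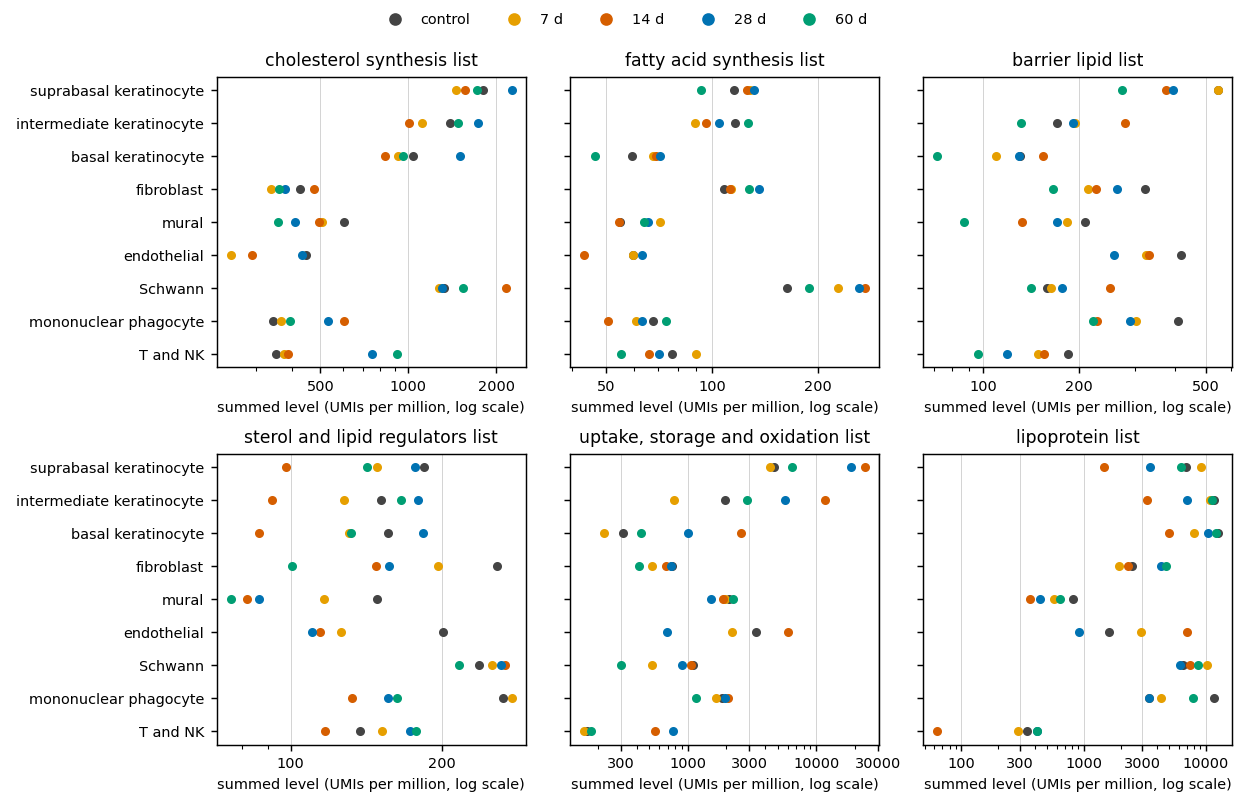
Summed level of 6 of the gene lists (CPM, log axis) in each gated cell class, with 1 point for each library, coloured by time. Cholesterol synthesis has its highest means over libraries in suprabasal keratinocytes (1762) and Schwann cells (1524), fatty acid synthesis is highest in Schwann cells, and the 14 d and 28 d points of the uptake list stand apart from the others in suprabasal keratinocytes at 23955 and 18673.

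Suprabasal and basal keratinocytes, as gated, could be tested against each other, since each of the 5 libraries held both classes. The test was edgeR's quasi-likelihood test on class sums, with the library as a block. The suprabasal range is not a pure epidermal layer. Only 50.1% of its cells in control and 53.8% at 7 d had at most 2 UMIs of Krt79, a keratin of the upper hair follicle. The part of the other cells in this contrast was not tested. RNA of 28 of the 38 genes tested was higher in suprabasal keratinocytes and that of 1 was lower, against 24.6% higher and 24.5% lower of all 11866 genes tested. The median log2 fold change of the 38 genes was 1.07, against -0.01 for all genes. The other 6 genes, Pparg, Ppara, Fads2, Elovl3, Awat2 and Far2, did not pass the filter on low counts. The fold changes are relative to TMM scaling. Scaled to total UMIs instead, all genes shifted by -0.378 on the log2 scale, 23 of the 38 were called higher and 4 lower, and of all calls 16.5% were higher, against 50.1% with TMM.

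In the cholesterol synthesis list 11 of 12 genes rose, with a median log2 fold change of 1.11. Fdps, the farnesyl diphosphate synthase, had 364, 337, 621, 421 and 356 CPM in suprabasal keratinocytes and 148, 184, 262, 209 and 162 CPM in basal keratinocytes. Its log2 fold change was 1.49 ± 0.11 (SE, n = 5 libraries). Hmgcs1, which makes HMG-CoA, had 380, 279, 176, 429 and 351 CPM in suprabasal keratinocytes and 188, 193, 105, 275 and 167 CPM in basal keratinocytes (log2 1.18 ± 0.12). Both genes were higher in the suprabasal range in all 5 libraries.

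Idi1, which isomerises isopentenyl diphosphate, had 442, 318, 230, 627 and 457 CPM in suprabasal keratinocytes and 342, 222, 129, 390 and 276 CPM in basal keratinocytes (log2 0.999 ± 0.12). The largest change of the list was that of Mvd, the mevalonate diphosphate decarboxylase, at a log2 fold change of 1.99 ± 0.14. Lss and Fdft1, which act around squalene, rose by 1.30 and 1.24, and Sqle, the squalene epoxidase, by 1.14. Cyp51, which removes a methyl group from lanosterol, rose by 0.79, and Mvk, Nsdhl and Sc5d rose by 1.08, 1.07 and 1.06. Dhcr7, the last reductase of the pathway, was the exception at -0.07 (edgeR adjusted p = 0.742).

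Of the regulators, Srebf2 (log2 0.79) and Srebf1 (0.55) rose, though Srebf1 was at 0.17 and did not pass when scaled to total UMIs (edgeR adjusted p = 0.3). Insig1 had a log2 fold change of 0.32 (edgeR adjusted p = 0.0271) and -0.05 when scaled to total UMIs. In fatty acid synthesis 5 of the 7 genes tested rose, with a list median of 1.07. Acly rose by 1.64 ± 0.10, Scd, the stearoyl-CoA desaturase, by 1.25 ± 0.26 (0.53 and not past the test with classes from clustering) and Fasn by 1.07 ± 0.07. Elovl5 (-0.32, adjusted p = 0.2) and Fads1 (-0.54, adjusted p = 0.294), which serve polyunsaturated fatty acids, did not pass edgeR's test.

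The barrier list had the largest median, 1.87, with 6 of 7 genes higher. Elovl4, which elongates fatty acids to the ultra-long chains of skin ceramides, had 257, 208, 55.4, 127 and 148 CPM in suprabasal keratinocytes and 2.1, 2.3, 0.76, 2.9 and 2.7 CPM in basal keratinocytes. This was 89.8-fold, the largest of the 38 genes, at a log2 fold change of 6.49 ± 0.20 (edgeR adjusted p = 3.31e-06). Abca12, the transporter that loads lamellar granules, rose by 2.59 ± 0.15, and Cers3, the ceramide synthase of the epidermis, by 2.10 ± 0.12. Ugcg rose by 1.87 ± 0.12 and Elovl1 by 1.53 ± 0.11.

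Sptlc2, a subunit of the serine palmitoyltransferase that starts all sphingolipid synthesis, was at 0.08 (edgeR adjusted p = 0.466). Scaled to total UMIs it was at -0.29 and called lower (edgeR adjusted p = 0.0233). In the uptake and storage list, Fabp5, the epidermal fatty acid-binding protein, rose by 4.44 ± 0.20 (adjusted p = 1.4e-05) and Dgat2, which makes triglycerides, by 2.98 ± 0.20. Dgat1 rose by 0.86. Fabp4 (0.13), Cpt1a (0.06), Plin2 (0.28) and Apoc1 (-0.12) did not pass. Lpl, the lipoprotein lipase, was the one gene called lower (-0.56 ± 0.19, edgeR adjusted p = 0.0386). Apoe was the lowest of the 38 at -0.64 ± 0.24 and did not pass (edgeR adjusted p = 0.0559).

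Some of these calls were lost with a library left out or under another setting, in part with a fold change of about the same size. The Lpl call was lost without the control library (log2 -0.53) or the 14 d (-0.42), 28 d (-0.65) or 60 d library (-0.66), and that of Insig1 without the same libraries (0.28, 0.21, 0.34 and 0.30). The calls of Elovl6 and Elovl7 were lost without the control library (0.94 and 1.18) or the 60 d library (1.25 and 1.23), and that of Elovl6 also without 7 d (0.84) or 14 d (1.11). Acaca lost its call without 7 d (0.72), 28 d (0.56) or 60 d (0.54). Apoe was called lower without the 7 d library (-0.88), and Fads1 without the 60 d library (-1.12). With total UMIs the calls of Acaca (0.31), Elovl6 (0.78) and Elovl7 (0.92) were lost and Elovl5 (-0.71), Sptlc2 (-0.29) and Apoe (-1.01) were called lower. Apoe was also called lower with DESeq2 (-0.62) and without the filter on low counts (-0.67). With classes from clustering those of Acaca (0.58) and Elovl6 (0.93) were lost and Apoe was called lower (-0.77).

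The other genes of these pathways, in 5 lists beside the 44, were read in the same fit. In it 24.6% of all 11866 genes tested were higher and 24.5% lower. Of the other cholesterol synthesis and uptake genes 9 of 13 rose and 1 fell. Msmo1, a sterol methyl oxidase, rose by 1.43, and Ggps1, which leads to protein prenylation rather than sterol, fell by 0.36. Of the other barrier genes 14 of 20 rose and 1 fell, with a median of 1.54. Sdr9c7 (6.53 ± 0.38) and Alox12b (6.13 ± 0.46), which act on the linoleate of ceramides, rose most, and Cers2 fell by 0.83. Of the other fatty acid synthesis genes 8 of 11 rose and 2 fell, with the acyl-CoA synthetases Acsl1 at 3.04 and Acsl4 at -2.79. In fatty acid oxidation 6 of 10 rose and 2 fell, and in cholesterol efflux and lipid uptake 1 of 11 rose and 3 fell, Npc1 at 1.34 and Mylip at -1.07. In both of these lists the share that fell was near that of all genes.

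Keratinocytes were then set against fibroblasts in the same way. Of the 40 genes tested 23 were higher in keratinocytes and 5 lower, against 29.7% and 28.3% of all 13425 genes tested, and the median log2 fold change was 1.02 against 0.05 for all genes. Ppara, Elovl3, Awat2 and Far2 did not pass the filter. The lists differed in their medians, with 2.0 for cholesterol synthesis, -0.01 for fatty acid synthesis, 3.82 for barrier lipids and -0.12 for uptake, storage and oxidation.

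In cholesterol synthesis 10 of 12 genes were higher in keratinocytes, among them Dhcr7 (2.63), Sqle (2.52), Fdft1 (2.50), Fdps (2.34 ± 0.25), Mvd (2.33), Cyp51 (2.14), Hmgcs1 (1.74) and Idi1 (1.22). Lss (0.25, edgeR adjusted p = 0.196) and Mvk (1.13, edgeR adjusted p = 0.061) did not pass. Fatty acid synthesis was divided. Scd (4.49 ± 0.35) and Elovl6 (2.54), which make monounsaturated and longer saturated chains, were higher in keratinocytes. The keratinocyte sums include the few cells with sebum genes given below, in which Scd stood high. The part of those cells in the Scd fold was not tested. Fads1 (-5.66 ± 0.32, edgeR adjusted p = 3.32e-06, the lowest of the 40) and Fads2 (-5.28 ± 0.62), the desaturases of polyunsaturated fatty acids, were lower. Fads1 had 33.7, 33.8, 30.3, 46.0 and 46.6 CPM in fibroblasts. Acly was at -0.25 (edgeR adjusted p = 0.262).

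Among barrier genes Elovl7 had the highest fold change in favour of keratinocytes at 5.04 ± 0.56 (edgeR adjusted p = 8.37e-05), but only 0.59 to 2.7 CPM in suprabasal keratinocytes. Cers3 (4.83 ± 0.26), Abca12 (4.54 ± 0.39) and Elovl4 (3.82 ± 0.22) were also higher in keratinocytes, and Ugcg was lower (-2.27 ± 0.23). Elovl1 (0.52, edgeR adjusted p = 0.158) and Sptlc2 (0.34, edgeR adjusted p = 0.189) did not pass. Lpl (-5.04 ± 0.24) and Plin2 (-1.81 ± 0.39), which coats lipid droplets, were lower in keratinocytes, and Fabp5 (3.76 ± 0.64), Dgat2 (1.69), Apoc1 (4.92 ± 0.23) and Apoe (1.35) were higher. Of the regulators Srebf1 (0.92) and Srebf2 (0.89) were higher and Insig1 (-0.79) did not pass, nor did Pparg (-1.11). Fibroblasts also carried keratinocyte markers, summed over the 12 genes of that list at 1415, 1222, 1377, 3031 and 2288 CPM, and the part of such RNA in these values was not tested. Without the 14 d library Mvk passed (1.27), without the 60 d library Insig1 was called lower (-1.12), and without the 14 d library Elovl5 was called lower (-0.77). The call of Nsdhl was lost without 7 d (0.48) or 60 d (0.57), and that of Fasn without 14 d (0.46), 28 d (0.38) or 60 d (0.50). With classes from clustering Fasn was at 0.44 and not called and Elovl5 was called lower (-0.81). With total UMIs Nsdhl was at 0.50 and not called and Insig1 was called lower (-0.88), and with DESeq2 Mvk passed (1.22).

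**Figure D2:**
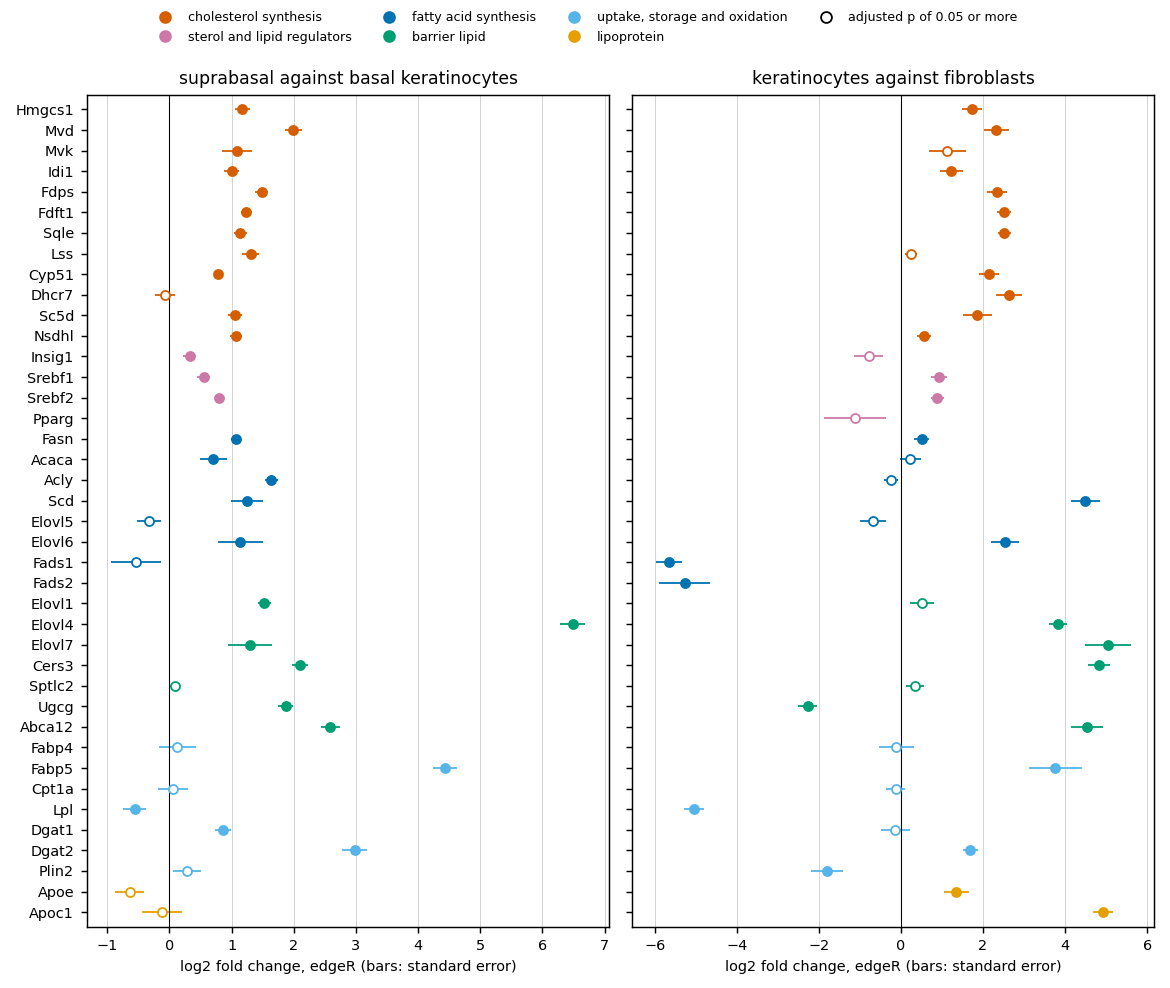
Log2 fold change of each tested gene (points, with the standard error as bars, over 5 libraries) for suprabasal against basal keratinocytes on the left and keratinocytes against fibroblasts on the right, coloured by list, with open points where the adjusted p was 0.05 or more. Elovl4 stands alone at 6.49 on the left, and Fads1, Fads2 and Lpl lie between -5.66 and -5.04 on the right.

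Over time, ratios of each irradiated library to control skin were taken for genes that averaged at least 10 CPM over the pair. A gene was called higher or lower at a 2-fold ratio, with no test. In suprabasal keratinocytes 1 of 27 genes was higher and 2 lower at 7 d (7.17% and 2.89% of all genes). At 14 d 4 of 28 were higher and 8 lower (7.44% and 22.1% of all genes), at 28 d 3 of 28 were higher and 3 lower (4.63% and 14.5%), and at 60 d 0 of 27 were higher and 6 lower (2.2% and 17.8%). The share that was lower was thus near that of all genes at 14, 28 and 60 d. The medians were -0.14, -0.59, 0.02 and -0.27 on the log2 scale, against 0.21, -0.21, -0.18 and -0.25 for all genes.

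In basal keratinocytes 0 of 23 genes were higher and 3 lower at 7 d (5.07% and 3.39% of all genes), 5 of 24 higher and 6 lower at 14 d (7.87% and 15.7%), 4 of 24 higher and 1 lower at 28 d (3.33% and 5.59%), and 0 of 22 higher and 4 lower at 60 d (1.77% and 9.13%). In fibroblasts the counts were 0 of 23 higher and 2 lower at 7 d (2.72% and 1.17% of all genes), 1 of 21 higher and 3 lower at 14 d (8.62% and 8.6%), 0 of 22 higher and 1 lower at 28 d (7.29% and 4.68%), and 0 of 22 higher and 5 lower at 60 d (7.26% and 6.29%). The median over the 22 genes in fibroblasts at 60 d was -0.32, against 0.14 for all genes. TMM scaling in place of total UMIs shifted the median of all genes by -0.203, 0.422, 0.336 and 0.384 at 7, 14, 28 and 60 d in suprabasal keratinocytes, by -0.144, 0.167, 0.062 and 0.149 in basal keratinocytes and by -0.098, -0.094, -0.192 and -0.249 in fibroblasts. Calls that fell under 2-fold in this way are given with both values below. Of the 62 calls in these classes, 17 (10 lower and 7 higher) had 1 library of the pair under 10 CPM, so that the gene passed the filter through the library where it was high.

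Each class was also made up of different cells in different libraries. When all cells were clustered, 92.7% of the suprabasal range at 14 d and 60.5% at 28 d lay in a cluster led by Fabp5 and Stfa3, which held 10.2% of that range at 60 d and 0% in control. The control cells of the range lay mostly in clusters led by Fst (46.1%) and by Krt10 and Krt1 (30.5%). In the basal range a cluster led by Krt5 and Ly6d held 48.5%, 49.8% and 46.4% of cells at 14, 28 and 60 d, against 2.24% in control. A cluster led by Krt15 and Fxyd3 held 80.5% at 7 d and 0.376% at 14 d, against 28.8% in control. Among fibroblasts a cluster with Ccl2, Tnfaip6 and Cxcl1 among its leading genes held 1.08% to 2.60% of cells after irradiation, against 46.6% in control. In every ratio to control that follows, a change within cells and a change in which cells fill the class cannot be told apart.

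**Figure D3:**
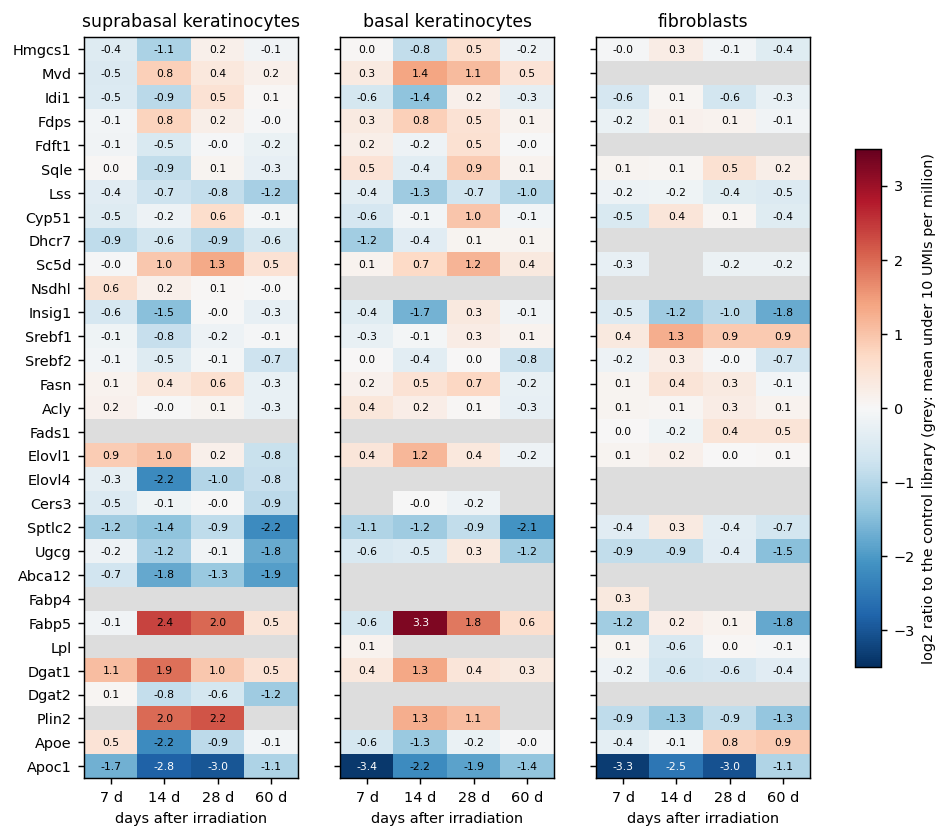
Log2 ratio of each gene to the control library at 7, 14, 28 and 60 d in suprabasal keratinocytes, basal keratinocytes and fibroblasts, with red above and blue below the control and grey where the pair averaged under 10 CPM. Apoc1 is blue in all 12 cells, Fabp5 is red at 14 d and 28 d in both keratinocyte ranges, and the cholesterol synthesis rows hold both colours at 14 d.

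The cholesterol synthesis genes did not share a direction. At 14 d in suprabasal keratinocytes Hmgcs1 was lower than in control (log2 -1.11, 95% interval -1.16 to -1.06; -0.69 with TMM scaling) while Fdps was at 0.77 (0.73 to 0.82). In basal keratinocytes Idi1 was lower at 14 d, at 129 CPM against 342 CPM in control (log2 -1.41), and Mvd was higher, at 23.1 CPM against 8.9 CPM in control (log2 1.37). With classes from clustering Mvd was at 0.91 at 14 d, and at 28 d it was at 1.10 (0.85 with classes from clustering). Both Mvd calls passed the filter through the irradiated library alone, so that only a call of higher was open. Of the 11 genes tested in suprabasal keratinocytes 1 was lower at 14 d (22.1% of all genes) and none was past 2-fold at 7 d. At 28 d 1 was higher (4.63% of all genes), and at 60 d 1 was lower (17.8%).

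At 28 d the summed cholesterol synthesis genes reached their highest level in both keratinocyte ranges. The gene past 2-fold in suprabasal keratinocytes was Sc5d, a sterol desaturase, with 33.3, 32.5, 64.4, 82.9 and 46.9 CPM (log2 1.32 at 28 d). It was also higher at 28 d in basal keratinocytes, with 22.0, 23.9, 35.6, 49.9 and 28.0 CPM (log2 1.18). Cyp51 had 176, 116, 166, 343 and 164 CPM in basal keratinocytes, just under 2-fold at 28 d (log2 0.96). Lss, the lanosterol synthase, was lower at 60 d in suprabasal keratinocytes, with 39.4, 29.8, 24.0, 22.3 and 17.5 CPM (log2 -1.17; -0.78 with TMM scaling). In basal keratinocytes it had 21.1, 16.4, 8.8, 13.1 and 10.5 CPM, lower at 14 d (-1.26) and at 60 d (-1.01; -0.86 with TMM scaling and -0.96 without mitochondrial and ribosomal genes). Dhcr7 was lower only at 7 d in basal keratinocytes, at 9.3 CPM against 21.7 CPM in control. This call and the basal Lss call at 14 d passed the filter through control alone, so that only a call of lower was open.

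Insig1, whose RNA is itself raised by SREBP, was lowest at 14 d in keratinocytes. It had 85.4, 56.5, 31.0, 84.7 and 70.2 CPM in suprabasal keratinocytes (log2 -1.46 at 14 d) and 82.5, 61.0, 26.2, 105 and 75.7 CPM in basal keratinocytes (-1.66 at 14 d). In fibroblasts it had 215, 156, 90.9, 111 and 63.0 CPM, and was lower at 14 d (-1.24) and at 60 d (-1.77). The control value was thus the highest in suprabasal keratinocytes and fibroblasts, and the 28 d value in basal keratinocytes.

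Srebf2 had 66.0, 61.8, 48.0, 63.4 and 40.01 CPM in suprabasal keratinocytes and Srebf1 32.3, 29.3, 18.5, 28.6 and 31.1 CPM, with none past 2-fold. In fibroblasts Srebf1 had 8.9, 11.4, 21.4, 16.8 and 16.7 CPM, higher at 14 d (log2 1.27, interval 0.30 to 2.09, on 77 cells). That call passed the filter through the 14 d library alone, so that only a call of higher was open. In Schwann cells the regulators summed to 237, 251, 267, 262 and 216 CPM, and Insig1 had 131, 138, 159, 121 and 91.3 CPM there, Srebf2 80.4, 73.3, 49.5, 67.8 and 54.0 CPM and Srebf1 26.1, 38.0, 57.7, 73.7 and 67.8 CPM. Those Schwann values rest on 13 to 102 UMIs each.

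Only 2 of the 8 fatty acid synthesis genes, Fasn and Acly, averaged 10 CPM in the pairs of the suprabasal and basal ranges. These 2 stayed within 2-fold of control in both ranges at every time, and the others were not called. Fasn had 38.5, 42.2, 49.8, 56.7 and 31.9 CPM in suprabasal keratinocytes and Acly 59.0, 65.5, 58.1, 62.7 and 49.5 CPM. The largest ratio of the 4 was that of Fasn at 28 d (log2 0.56, interval 0.41 to 0.71). Scd was under the filter, at 6.4, 4.4, 11.8, 6.1 and 6.1 CPM, as were Elovl6 at 7.3, 11.9, 3.1, 1.2 and 1.3 CPM and Acaca, the acetyl-CoA carboxylase, at 1.5 to 3.2 CPM. Fads1, Fads2 and Elovl5 stayed under 1.6 CPM.

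The barrier genes were on the lower side in suprabasal keratinocytes. Of the 6 tested, 1 was lower at 7 d (2.89% of all genes), and 4 were lower and 1 higher at 14 d (22.1% and 7.44%). At 28 d 2 were lower (14.5% of all genes), and at 60 d 3 were lower (17.8%). The list medians were -0.39, -1.28, -0.51 and -1.34, against 0.21, -0.21, -0.18 and -0.25 for all genes. Abca12 had 24.7, 15.5, 7.1, 10.0 and 6.5 CPM, and was lower at 14 d (log2 -1.79, interval -2.03 to -1.55), 28 d (-1.30; -0.96 with TMM scaling) and 60 d (-1.93). At 14 d and 60 d Abca12 passed the filter through the control library alone, so that only a call of lower was open. Elovl4 was lower at 14 d (-2.22, interval -2.30 to -2.14) and 28 d (-1.02; -0.69 with TMM scaling), and at 60 d stood at -0.80.

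Ugcg had 81.1, 72.01, 36.5, 74.0 and 23.9 CPM, lower at 14 d (-1.15; -0.73 with TMM scaling) and 60 d (-1.76). It was lower at 60 d also in basal keratinocytes (-1.21) and in fibroblasts (-1.47). Elovl1, which makes the saturated very long chains, was higher at 14 d, with 111, 206, 228, 127 and 64.6 CPM (1.03 at 14 d; 0.96 with classes from clustering), and in basal keratinocytes with 47.0, 63.0, 105, 60.4 and 41.4 CPM (1.16 at 14 d; 0.81 with classes from clustering). Cers3 had 38.7, 27.9, 34.9, 38.4 and 20.4 CPM, with no ratio past 2-fold.

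Sptlc2 was lower than in control in both ranges at 7, 14 and 60 d. It had 33.1, 14.3, 12.5, 18.0 and 7.2 CPM in suprabasal keratinocytes and 38.1, 18.4, 16.2, 21.0 and 9.0 CPM in basal keratinocytes, so that the control value was the highest in both. The log2 ratios were -1.21, -1.41, -0.88 and -2.20 in suprabasal and -1.05, -1.24, -0.86 and -2.08 in basal keratinocytes. With TMM scaling the suprabasal ratio at 14 d was -0.99, and with classes from clustering that at 7 d was -0.99. At 60 d Sptlc2 passed the filter through control alone in both ranges, so that only a call of lower was open.

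The suprabasal range held unlike cells in the 5 libraries. Krt79, a keratin of the upper hair follicle, was at 2963, 2866, 58, 63 and 296 CPM in it, and cells with at most 2 Krt79 UMIs made up 50.1%, 53.8%, 95.7%, 96.9% and 89.6%. Among those cells alone, chosen after these values were seen, 7 of the 11 barrier calls stayed past 2-fold. These were Elovl4 (-2.06), Abca12 (-1.46), Ugcg (-1.01) and Elovl1 (1.11) at 14 d, and Sptlc2 (-1.75), Ugcg (-1.58) and Abca12 (-1.48) at 60 d. The other 4 were Elovl4 (-0.80) and Abca12 (-0.88) at 28 d and Sptlc2 at 7 d (-0.64) and 14 d (-0.96). Elovl1 was past 2-fold at 7 d as well in these cells (1.21). The sum of the barrier list stood at a log2 ratio of -0.55 at 14 d with all suprabasal cells and at -0.38 in these cells, and without Elovl4 it stood at 0.13.

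**Figure D4:**
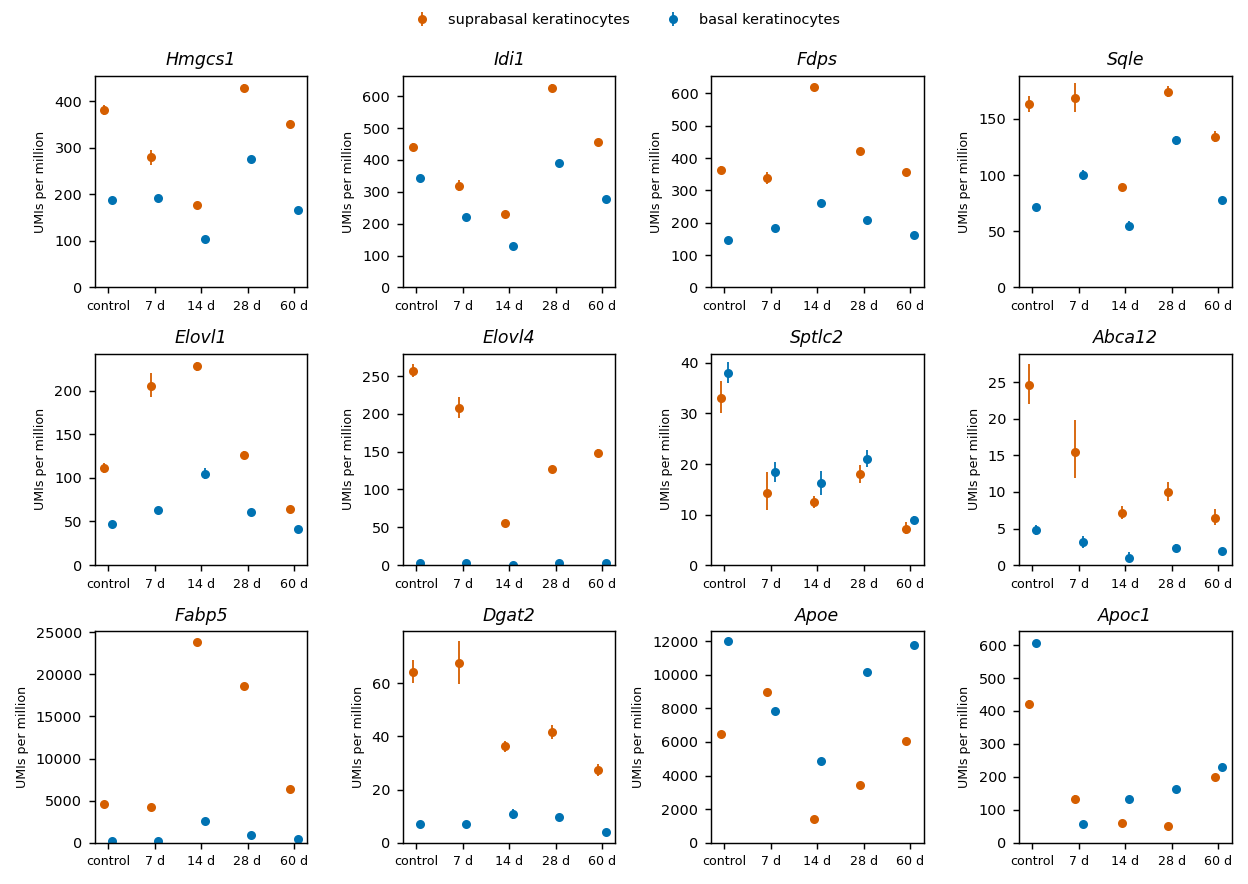
Level of 12 of the genes (CPM, linear axes from 0) by library in suprabasal and basal keratinocytes, with exact 95% counting intervals as bars and 1 library per point. Hmgcs1, Idi1 and Sqle are lowest at 14 d in both ranges where Fdps is highest, Sptlc2 and Apoc1 are highest in control in both, and Fabp5 reaches 23844 at 14 d in suprabasal keratinocytes.

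Of the genes tested, Fabp5 had the highest ratio to control at 14 d in both keratinocyte ranges. It had 4630, 4220, 23844, 18575 and 6360 CPM in suprabasal keratinocytes, 5.15-fold over control at 14 d (log2 2.36) and 4.01-fold at 28 d. Most suprabasal cells at these times lay in the Fabp5-led cluster that held no control cell, while in control they lay in others. In basal keratinocytes it had 262, 172, 2542, 940 and 392 CPM (3.28 at 14 d and 1.84 at 28 d). With classes from clustering the basal ratio at 28 d was 0.37. In fibroblasts it had 372, 160, 435, 401 and 107 CPM, lower at 7 d (-1.22) and 60 d (-1.79; -0.80 with classes from clustering). The 8 neutrophil markers, among them S100a8 and S100a9, which keratinocytes can also express, summed to 57.2, 562, 21146, 4140 and 1516 CPM in suprabasal and 58.4, 80.4, 1876, 531 and 392 CPM in basal keratinocytes. In suprabasal keratinocytes Csf3r, Cxcr2, Mmp8 and Trem1 were at 0 at 7 d and all 8 were seen at 14 d and 28 d. The part of such cells or their RNA in the Fabp5 values was not tested.

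Dgat1, which like Dgat2 makes triglycerides, had 11.6, 24.7, 43.9, 22.5 and 16.5 CPM in suprabasal keratinocytes, higher at 7 d (log2 1.09; 0.88 with TMM scaling and 0.97 without mitochondrial and ribosomal genes) and 14 d (1.91), and 10.9, 14.2, 27.7, 14.6 and 13.9 CPM in basal keratinocytes (1.34 at 14 d). Dgat2 had 64.2, 67.4, 36.2, 41.6 and 27.3 CPM in suprabasal keratinocytes, lower at 60 d (-1.23; -0.85 with TMM scaling). Plin2 was higher at 14 d (1.97) and 28 d (2.20) in suprabasal keratinocytes, on 4.5, 9.9, 17.5, 20.5 and 3.9 CPM. It passed the filter at these times only, through the irradiated library, so that a call of higher was fixed by the filter. In basal keratinocytes it was at 1.27 and 1.08 at these times, again through the irradiated library alone, and at 0.25 and 0.26 with classes from clustering. In fibroblasts Plin2 had 74.8, 40.2, 30.3, 41.3 and 29.5 CPM and was lower at 14 d (-1.30) and 60 d (-1.34).

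Apoc1, which encodes a small apolipoprotein and lies beside Apoe, was the one gene lower at all 4 times in suprabasal and in basal keratinocytes. In fibroblasts it was lower as well, but only the control library was above 10 CPM there, so it passed the filter through that library alone. It had 421, 132, 59.6, 52.4 and 198 CPM in suprabasal keratinocytes, 605, 58.3, 132, 164 and 230 CPM in basal keratinocytes and 20.4, 2.0, 3.6, 2.5 and 9.8 CPM in fibroblasts. The control value was the highest in each class. The log2 ratios were -1.67, -2.82, -3.01 and -1.09 in suprabasal, -3.38, -2.19, -1.88 and -1.39 in basal keratinocytes, and -3.32, -2.52, -3.04 and -1.05 in fibroblasts. The 60 d suprabasal ratio was -0.70 with TMM scaling and -0.93 with classes from clustering. In fibroblasts the ratios with classes from clustering were -0.88 at 28 d and -0.20 at 60 d, and that at 60 d was -0.67 with Scrublet doublet calls removed. A cluster with Apoc1 among its leading genes held 20.4% of the basal range in control. It held 0.154%, 0%, 0.228% and 0.441% of that range at 7, 14, 28 and 60 d. The part of that cluster in the basal Apoc1 ratios was not tested.

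Apoe, which carries cholesterol out of cells, did not follow Apoc1. It had 6463, 8983, 1409, 3424 and 6039 CPM in suprabasal keratinocytes and 12013, 7867, 4882, 10151 and 11748 CPM in basal keratinocytes, lower past 2-fold only at 14 d (log2 -2.20 in suprabasal and -1.30 in basal keratinocytes). In fibroblasts it had 2480, 1944, 2315, 4304 and 4679 CPM, with no ratio past 2-fold.

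Other classes had patterns of their own. In phagocytes 2 of 25 genes were higher and 1 lower at 7 d (8.76% and 3.84% of all genes), 6 of 26 higher and 6 lower at 14 d (14.9% and 10%), 3 of 27 higher and 5 lower at 28 d (10.5% and 12.2%), and 4 of 25 higher and 3 lower at 60 d (13.6% and 12.9%). Dgat2 was higher at every time, with 9.9, 29, 80, 67 and 63 CPM (log2 1.55, 3.02, 2.75 and 2.67). Since its control value was under 10 CPM, only a call of higher was open. Plin2 had 513, 524, 301, 159 and 73 CPM, lower at 28 d (-1.69) and 60 d (-2.82), and Lpl was lower at 14 d (-3.40) and 28 d (-2.99). Pparg had 23.1, 17.8, 4.1, 13.8 and 4.8 CPM in phagocytes, on 3 to 47 UMIs, and was lower at 14 d (-2.48, interval -4.17 to -1.14) and 60 d (-2.25, interval -4.59 to -0.61). In both of these pairs only control was above 10 CPM, so that only a call of lower was open for Pparg. Beside these phagocyte values, the adipocyte marker list summed to 2343, 616, 24.8, 101 and 704 CPM in phagocytes, with Plin1, Plin4 and Lep at 0 in every library.

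In Schwann cells 8 of 28 genes were higher and 2 lower at 14 d (11.5% and 16.3% of all genes), the time at which their cholesterol synthesis sum was highest. Hmgcs1 had 167, 228, 465, 280 and 288 CPM there (log2 1.48 at 14 d), on 83 to 208 UMIs. Mural cells, the pericytes and smooth muscle of vessels, had 0 of 21 genes higher and 3 lower at 14 d (2.84% and 4.23% of all genes) and 1 of 24 higher and 5 lower at 60 d (4.8% and 11.4%). In them Insig1 had 87.4, 64.1, 36.2, 43.1 and 28.8 CPM, Sptlc2 33.3, 22.8, 19.6, 12.8 and 12.0 CPM and Idi1 310, 213, 199, 137 and 117 CPM, each with the highest value in control. In T and NK cells the cholesterol synthesis sum was 352, 377, 389, 751 and 912 CPM, and 8 of 19 genes were higher and 2 lower at 28 d (14.4% and 15.5% of all genes). Idi1 had 114, 118, 109, 258 and 423 CPM there. Keratinocyte markers summed to 1103, 1116, 1744, 5005 and 1899 CPM in the same cells, so the 28 d value stood beside the highest level of such RNA, and the part of it was not tested. In endothelial cells, with under 50 cells at 60 d, 2 of 19 genes were higher and 4 lower at 14 d (9.46% and 9.94% of all genes). They held 1591, 2945, 6946 and 917 CPM of Apoe and 3023, 1980, 5368 and 305 CPM of Fabp4, the fatty acid-binding protein of capillaries, in the first 4 libraries.

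The sebum genes came from a handful of keratinocytes. Elovl3, which elongates sebum fatty acids, Awat2, a wax synthase, and Far2, which makes fatty alcohols, summed to 483, 3, 6, 15 and 917 UMIs in keratinocytes, or 7.77, 0.105, 0.106, 0.212 and 7.37 CPM. Cells with at least 3 of these UMIs numbered 18, 0, 0, 1 and 34 among 4820, 1768, 2173, 5170 and 6684 keratinocytes, or 0.373% in control, 0.0193% at 28 d and 0.509% at 60 d. A count of 0 allows a share of up to 0.170% at 7 d and 0.138% at 14 d, read as 3 cells of the total, and the exact interval reaches 0.208% and 0.170%. These cells held 89.4% of the sebum UMIs in control and 86.0% at 60 d. Of the 18 cells 16, and of the 34 cells 26, were in the intermediate class, which reached the cut in both keratinocyte scores or in neither.

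The values at 7, 14 and 28 d were also low at equal depth. With each keratinocyte thinned to 1000 UMIs, 0.251%, 0%, 0%, 0.0202% and 0.422% had a sebum UMI. As background, the share of cells with at least 1 sebum UMI was 1.39%, 0.170%, 0.230%, 0.232% and 2.21% in keratinocytes, at median depths of 10780, 12180, 24135, 10456 and 15668 UMIs. In fibroblasts, which should lack these genes, it was 0.358%, 0.0282%, 0%, 0% and 1.34%, at median depths of 11782, 9040, 6387, 4537.5 and 7137 UMIs. How many sebaceous glands each piece of skin held, or kept through digestion, is not known.

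In those cells other genes of the 44 stood high, given as a description since the cells were picked by sebum genes. Scd was at 242 CPM in the 18 control cells and 6.4 CPM in the other control keratinocytes, and at 828 CPM in the 34 cells of the 60 d library and 4.2 CPM in its other keratinocytes. Pparg, the factor of fat-storing cells, was at 67.1 against 0.37 CPM in control and 118 against 1.8 CPM at 60 d. Cyp51 was at 984 against 189 CPM in control and at 1038 against 182 CPM at 60 d, and Acly at 248 against 34.2 CPM and 254 against 27.7 CPM. Elovl4 was at 389 against 58.2 CPM and 505 against 31.8 CPM. The barrier lipid genes other than Elovl4 were lower in these cells in both libraries. Abca12 had 0 UMIs in them, against 9.4 and 3.0 CPM in the other keratinocytes, and Elovl7 had 0 UMIs as well. Ugcg, on 2 and 3 UMIs, was at 4.5 against 36.6 CPM in control and 3.8 against 13.4 CPM at 60 d. Elovl1 differed least, at 44.7 against 62.7 CPM and 42.6 against 47.6 CPM. Of the 9 sebocyte markers, Mgst1 was at 3293 against 102 CPM in control and 3041 against 157 CPM at 60 d. Cidea, Plin5, Mc5r, Soat1, Acsbg1 and Krt79 were also higher in these cells in both libraries, with Krt79 at 1548 against 739 CPM in control. Awat1 had 0 UMIs in these cells in both libraries, and Dgat2l6 had 0 in control and 1 at 60 d.

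**Figure D5:**
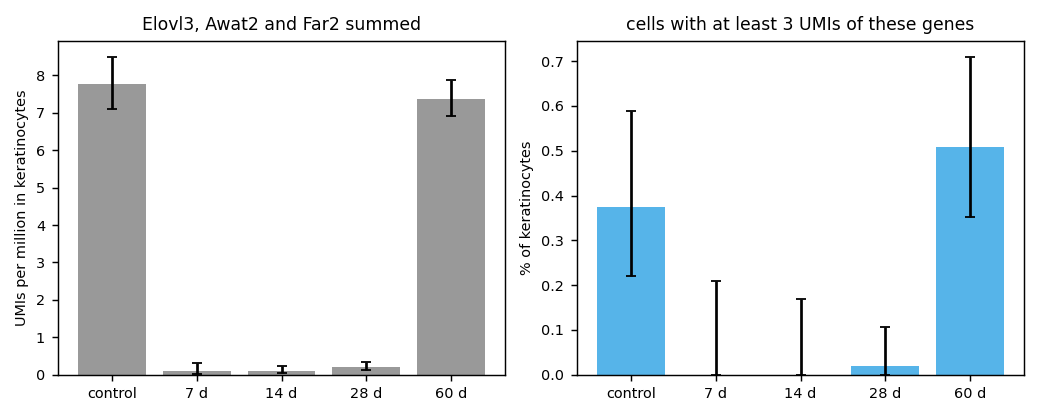
Sebum genes Elovl3, Awat2 and Far2 in keratinocytes of each library, as their summed level (CPM, exact Poisson 95% interval) on the left and as the share of cells with at least 3 of their UMIs (exact binomial 95% interval) on the right. The control and 60 d bars stand at 7.77 and 7.37 CPM and at 0.373% and 0.509% of cells, and the 7, 14 and 28 d bars are at or near 0.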

How the data were processed

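The deposited values were raw counts of UMIs per gene and barcode, not normalized; the submitters' processing notes, which are the source for what the authors ran, name STAR, Cell Ranger 5.0.0 and Seurat 3.1.1 and the build Rnor_6.0. Rows that share a symbol were summed (32623 rows, 30017 symbols). A barcode needed 500 UMIs and 300 genes or more, and no more than 20% of its UMIs from mitochondrial genes. Each was gated on marker scores (score 0.2, gap 0.1, keratinocyte cut 0.4), and classes with under 50 cells in a library were left out. Doublets were not removed, and an alternative removed Scrublet calls (0.975% to 2.74% of barcodes).

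The 44 genes, the lists and the tests were chosen with earlier results of these data known. Values in each library are given for up to 3 genes with the highest mean in each list, for genes at least 2-fold from control in 1 direction at 3 or more of 4 times in either keratinocyte range or fibroblasts (Apoc1, Sptlc2 and Abca12), and for the largest and smallest fold of each class contrast. Other genes were named after their values were seen.

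Class contrasts used edgeR 4.0.16 (R 4.3.3; quasi-likelihood, TMM, library block, Benjamini-Hochberg adjusted p, called under 0.05) on sums per class and library. In a simulation at a fixed dispersion, 100 genes with a mean of at least 10 CPM were changed 2-fold and 100 others 4-fold. The 2-fold changes were recovered in 92% for suprabasal against basal keratinocytes (among 11866 genes). For keratinocytes against fibroblasts they were recovered in 78% (among 13425 genes), and 4-fold changes were recovered in 100% of both. Genes under 10 CPM were not changed, so these shares do not cover them. Libraries were compared as CPM over total UMIs, with exact conditional binomial 95% intervals, at a mean of at least 10 CPM and a fold of 2. The alternatives were DESeq2 1.42.0, no filter, no block, each library left out, TMM, total UMIs without 13 mitochondrial and 101 ribosomal protein genes, means per cell, stricter filters (1000 UMIs, 10%), Leiden clusters named from the same markers, and lists without their leading gene. Promoters and their letters came from RefSeq. The software was Python 3.11.15 with numpy 2.4.6, scipy 1.17.1, scanpy 1.11.5 and leidenalg 0.10.2.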

Additional observations from a re-analysis of the deposited data

Results flagged for a closer look

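Some genes were past 2-fold in opposite directions in different cell classes of the same library, set against control as log2 ratios. Each class has 1 library per time, and the differences between classes were not tested. At 14 d Hmgcs1 was at 1.33 in phagocytes and -1.11 in suprabasal keratinocytes, and Sqle at 1.02 in phagocytes and -1.27 in endothelial cells. Plin2 at 14 d was at 1.97 in suprabasal and 1.27 in basal keratinocytes and at -1.30 in fibroblasts, and at 28 d at 2.20 in suprabasal and 1.08 in basal keratinocytes and at -1.69 in phagocytes. The keratinocyte calls of Plin2 passed the filter through the irradiated library alone, so that only a call of higher was open. With classes from clustering the basal ratios were 0.25 at 14 d and 0.26 at 28 d. Apoe at 14 d was at 2.13 in endothelial cells and at -2.20 in suprabasal keratinocytes, -1.30 in basal keratinocytes, -1.14 in mural cells and -1.74 in phagocytes. At 60 d Dgat2 was at 2.67 in phagocytes and -1.23 in suprabasal keratinocytes. In phagocytes its control value was under 10 CPM, so that only a call of higher was open. Apoc1 at 60 d was at 1.55 in phagocytes and at -1.39 in basal keratinocytes, -1.09 in suprabasal keratinocytes, -1.05 in fibroblasts and -1.0 in mural cells. The fibroblast call of Apoc1 passed the filter through control alone, and its ratio was -0.20 with classes from clustering. With TMM scaling some suprabasal ratios fell under 2-fold. These were Hmgcs1 at 14 d (-0.69), Dgat2 at 60 d (-0.85) and Apoc1 at 60 d (-0.70, and -0.93 with classes from clustering).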

How the results depend on the processing

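No paired analysis was possible because each group is 1 library, as far as times are compared, and the class contrasts carried the library as a block. The class contrasts kept most calls. For suprabasal against basal keratinocytes the count of genes called higher was 28 with all libraries, 20 without the library block and 24 to 26 with a library left out. The count called lower, 1 with all libraries, was 2 with DESeq2, 3 without the filter, 0 without the block, 4 with total UMIs, 2 with Leiden clusters and 0 to 2 with a library left out. Insig1 turned to -0.0499 with total UMIs, and Sptlc2 turned to -0.293 and was called lower. For keratinocytes against fibroblasts 21 to 27 genes were higher and 5 to 6 lower across alternatives, and 21 to 24 were higher with a library left out.

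The summed cholesterol synthesis genes in basal keratinocytes stood at a log2 ratio of -0.17 at 7 d (-0.32 with TMM, -0.22 without mitochondrial and ribosomal genes, -0.089 as a mean per cell, -0.29 with Leiden clusters and 0.0089 without Idi1), -0.31 at 14 d (-0.14 with TMM, -0.25 per cell, -0.43 with Leiden clusters and 0.026 without Idi1), 0.54 at 28 d (0.60 with TMM, 0.59 per cell, 0.57 with stricter filters, 0.41 with Leiden clusters and 0.69 without Idi1) and -0.11 at 60 d (0.037 with TMM, -0.068 without mitochondrial and ribosomal genes, -0.16 per cell, -0.14 with Leiden clusters and -0.024 without Idi1). The summed barrier genes in suprabasal keratinocytes stood at -0.0056 at 7 d (-0.21 with TMM, -0.12 without mitochondrial and ribosomal genes, 0.16 per cell, 0.22 without Elovl4 and 0.27 in cells with at most 2 Krt79 UMIs), -0.55 at 14 d (-0.13 with TMM, -0.19 per cell, 0.13 without Elovl4 and -0.38 in those cells), -0.47 at 28 d (-0.14 with TMM, -0.21 per cell, -0.54 with Leiden clusters, -0.12 without Elovl4 and -0.29 in those cells) and -1.01 at 60 d (-0.63 with TMM, -0.93 without mitochondrial and ribosomal genes, -0.96 per cell, -1.29 with Leiden clusters, -1.23 without Elovl4 and -0.82 in those cells). The cause of these moves was not tested.

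Of 62 calls of single genes against control in the 3 main classes, 52 stayed past 2-fold with TMM, 50 with Leiden clusters, 60 without mitochondrial and ribosomal genes, 61 with Scrublet calls removed and 62 with stricter filters, and 0 turned round. With 1 library per group and 77 fibroblasts at 14 d, depth limits the low genes most. Ppara, Fads2, Far2, Acaca, Mvk and Elovl7 did not reach the filter of 10 CPM against control in any class. Elovl3 and Awat2 reached it only in intermediate keratinocytes at 60 d, and Pparg only in phagocytes, endothelial cells and mural cells.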

Other observations

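Sebum UMIs (Elovl3, Awat2 and Far2) were also counted in barcodes outside the keratinocyte class. Cells that the gate left unassigned held 177, 4, 0, 5 and 13 of them in control and at 7, 14, 28 and 60 d, and barcodes removed by the filters held 45, 1, 1, 3 and 164. The 7, 14 and 28 d libraries were thus low in these barcodes too.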
